A study of Paralichthys olivaceus with 2 samples.

Results

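A set of 137 genes of middling abundance was lower in a T3 library of whole Japanese flounder (Paralichthys olivaceus) than in a control library, out of 21787 genes listed. Members were chosen by their counts in these same libraries: 100 to under 5000 counts over both libraries, a coding length under 9000 nt, and a share of the library's counts (0.5 added to each count) at least 2.5 times lower in T3. Of the 7748 genes within those count and length limits, 137 (1.77%) met the fold limit. The mirrored limit, at least 2.5-fold higher in T3, was met by 53 genes (0.684%). These numbers depend on the scaling: with library totals taken without the 20 most abundant genes, 88 genes met the lower limit and 80 the higher one. As the members were chosen on this ratio, their lower level is the rule and not a finding, and it was not tested.

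T3 fish had received triiodothyronine at 0.01 mg/L for 10 days from 16 days after hatching, and control fish were untreated. Per the labels, each treatment began with 1000 larvae, and whole bodies were sampled at 42 days after hatching, 16 days after the treatment ended. The number of fish behind a library is not stated there. Each group has 1 library, so there is no replicate check, and every interval covers counting error only: the values compare these 2 libraries, not the treatments.

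Triiodothyronine is the thyroid hormone that binds nuclear thyroid hormone receptors most strongly, and these receptors raise the transcription of some genes and lower that of others. In flatfish it drives metamorphosis, in which an eye migrates, the body settles on its side, and larval forms of muscle, blood and skin pigment cells give way to adult ones. A transcript can be lower in whole-body RNA because fewer cells of a type are present or because each cell holds less of it, and the 2 cannot be told apart here. No source used here links the gene IDs to names, so no role can be given to a member, and no tissue marker could be checked. Members are given by rank, from the largest fold difference (rank 1) to the smallest (rank 137), and by coding length.

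The T3 library held 6042338 counts and the control library 4943675. The members took 17971 counts in T3 (0.297% of the library) and 47710 in control (0.965%). Their summed share was thus 3.24-fold lower in T3. The 10 members with the most control counts contributed 6256 of those counts in T3 and 17038 in control. Without them the summed share was 3.20-fold lower; as each member is at least 2.5-fold lower by the rule, a low sum follows from the choice. By comparison, the other genes within the count and length limits took 26.9% of the T3 counts and 28.9% of the control counts.

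**Figure D1:**
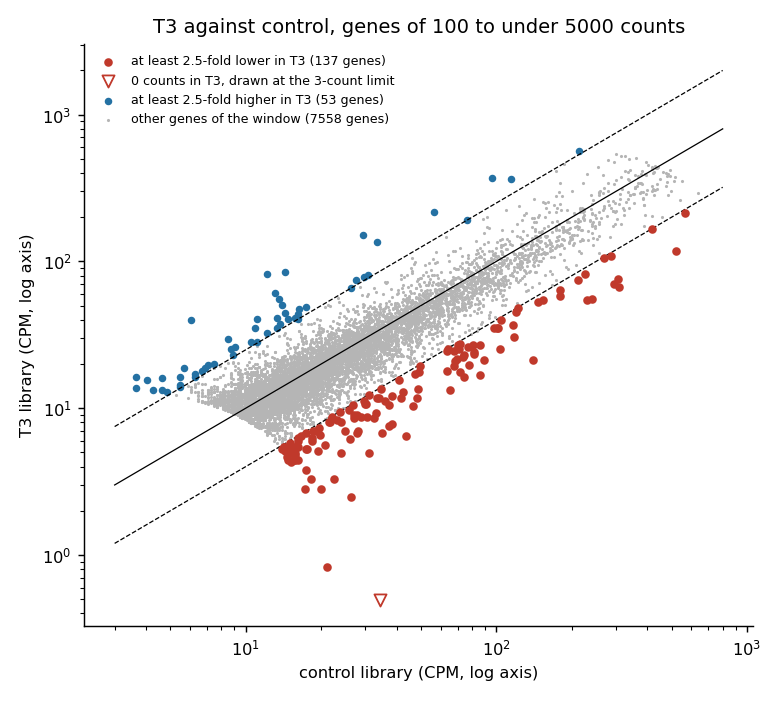
T3 level (vertical) against control level (horizontal), both in counts per 1000000 (CPM) on log axes, for the 7748 genes within the count and length limits, 1 point a gene. The solid line marks equal levels and the dashed lines 2.5-fold, drawn on levels without added counts. With 0.5 added to each count, 137 genes (red) met the lower limit and 53 (blue) the higher one. The 3 genes just outside the lower limit, at 39.7% of control without added counts, also lie under the lower line. The open triangle is the gene with 0 counts in T3, drawn at the 3-count limit of 0.496 CPM.

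Most members kept between 25% and 40% of their control level, and 2 of the 137 met the limit for near-complete loss defined below. The median member stood at 32.0% of its control level, with quartiles of 26.4% and 36.8%. The median log2 ratio (T3 over control) was -1.64, against -0.10 for all 7748 genes. The median is the same with the gene at 0 counts placed at its bound, since that gene is at the end of the order either way. By fold size, 64 members (46.7%) were 2.5- to under 3-fold lower, 41 were 3- to under 4-fold lower and 20 were 4- to under 5-fold lower. The remaining 12 were at least 5-fold lower, and 3 of them at least 10-fold. The 53 genes higher in T3 reached at most 6.67-fold, with 8 of 53 (15.1%) at 4-fold or more against 32 of 137 (23.4%) among the lower genes. These shares describe 2 sets cut at the same fold and were not tested against each other. Like the numbers of genes, they depend on the scaling.

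Depth allowed a firmer statement for some members than for others. For each gene the share of its counts found in T3 was given an exact 95% binomial interval (Clopper-Pearson), which was then expressed as a ratio of levels. As it uses the counts that chose the members, it describes depth and supports nothing about them: at 100 counts or more, a gene past the fold limit has an interval under equal abundance by construction. The highest upper bound was 59.1% of control. The interval lay wholly beyond 2-fold lower for 106 members (77.4%); 118 of all 7748 genes (1.52%) met that limit, a difference that restates the rule. Of the 61 members with fewer than 200 counts 33 met it, against 33 of 36 with 200 to 499 counts and all 40 with more. Beyond 4-fold it lay for 11 members. The 31 members that did not meet the 2-fold limit had at most 253 counts and were at most 3.03-fold lower. Members with as few as 100 counts met it at larger folds, so both depth and fold size set which members did.

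**Figure D2:**
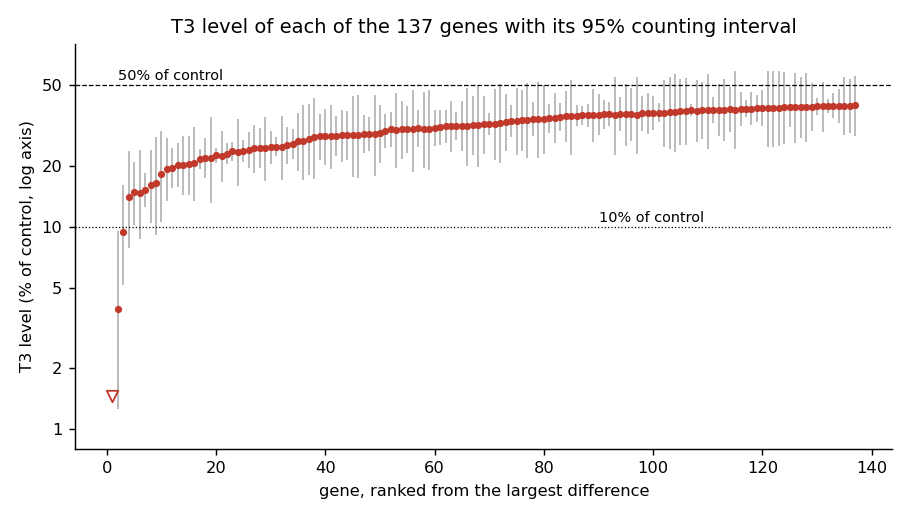
T3 level as a percent of the control level (log axis) for each of the 137 genes, ranked from the largest difference. A grey line is the 95% counting interval, drawn for all but the gene with 0 counts in T3. The median is 32.0%; 2 genes have their whole interval under the dotted line at 10%, and 31 have an interval that crosses the dashed line at 50%. The open triangle is the gene with 0 counts in T3, drawn at the level that 3 counts would give.

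Near-complete loss was taken as an upper counting bound under 10% of the control level, which 2 of the 7748 genes (0.0258%) met, both of them members. Both have short coding sequences. GS_000805, of 384 nt, had 0 counts in T3 and 169 in control. Its control level was 34.2 counts per 1000000 (CPM). By the counting interval used for the other members its T3 level was at most 1.81% of control, or at least 55.4-fold lower. The limit of 3 counts that a count of 0 allows, 0.496 CPM, is the narrower of the 2 allowances and lies 68.9-fold under the control level. The control level of GS_000805 per length was 89.0 CPM per kilobase of coding sequence, above 91.0% of the 7748 genes. Short genes tend to stand high by this measure, since counts within fixed limits are divided by length. Over the 7748 genes, Spearman's rho of control level per length with length was -0.74. The high control levels per length of both genes thus follow in part from their short coding sequences. GS_017735, of 396 nt, had 5 counts in T3 (0.827 CPM) and 104 in control (21.0 CPM). It was 23.2-fold lower with 0.5 added to each count. Its interval from the counts alone, 10.6 to 79.9, is wide because it rests on 5 counts. By the counts alone its T3 level was 3.93% of control, with an upper bound of 9.48%. Per length it stood at 2.09 CPM per kilobase in T3 and 53.1 in control, above 1.47% and 84.5% of the 7748 genes. When library totals were taken without the 20 most abundant genes, the upper bound of GS_017735 passed 10%, and GS_000805 alone met the limit.

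The member of rank 3 was the next lowest, and its loss was not near complete by this limit. It has 1464 nt and had 15 counts in T3 and 130 in control. It was 10.3-fold lower (interval 6.19 to 19.5), at 9.44% of control with an upper bound of 16.2%. Rank 4 followed at 6.95-fold, and from there on the members follow one another closely.

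Ranks 4 to 12, described after their values were seen, were 5.09- to 6.95-fold lower. Rank 4 (492 nt) had 17 counts in T3 and 99 in control, with an interval of 4.23 to 12.7-fold. Rank 5 (1968 nt) had 39 in T3 and 216 in control, with an interval of 4.80 to 9.78-fold. Rank 6 (2103 nt) had 20 in T3 and 111 in control, with an interval of 4.19 to 11.5-fold. The intervals of these 3 overlap almost wholly, so their order is not resolved. Rank 7 (1539 nt) is the deepest covered of the 12, with 129 counts in T3 and 693 in control. Its fold of 6.55 has an interval of 5.43 to 7.99. Rank 12 (1569 nt) follows in depth, with 102 counts in T3 and 426 in control, 5.09-fold lower (4.10 to 6.40). The 4 genes between were 5.11- to 6.15-fold lower. Rank 8 (723 nt) had 30 counts in T3 and 153 in control, and rank 9 (2025 nt) had 17 in T3 and 85 in control. Rank 10 (612 nt) had 20 in T3 and 90 in control, and rank 11 (2406 nt) had 41 in T3 and 173 in control. Ranks 9 and 6 had the lowest T3 levels per length of the 12 after rank 1, at 1.39 and 1.57 CPM per kilobase in T3 and 8.49 and 10.7 in control.

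Among abundant members the counting intervals were narrower, and the fold lay between 2.53 and 4.61. The 10 members with the most control counts had 1139 to 2808 counts there and 330 to 1291 in T3. The most abundant was rank 107 (762 nt), with 1291 counts in T3 and 2808 in control, at 214 CPM in T3 and 568 CPM in control. It was 2.66-fold lower, with an interval of 2.49 to 2.84. Rank 20 (918 nt) came next in control, with 711 counts in T3 and 2584 in control, and was 4.44-fold lower (4.09 to 4.83). The counting intervals of these 2 genes do not overlap. They rest on the counts that chose the members and cover counting error only, and the difference in fold was not tested.

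Of these 10, 4 lay near the limit of the rule. They were rank 107, rank 117 (675 nt, 663 counts in T3 and 1415 in control, 2.61-fold), rank 130 (1272 nt, 642 in T3 and 1332 in control, 2.53-fold) and rank 132 (2901 nt, 999 in T3 and 2071 in control, 2.53-fold). The other 6 were between 4.02- and 4.61-fold lower. They were rank 17 (3528 nt, 403 counts in T3 and 1521 in control), rank 20, rank 22 (354 nt, 335 in T3 and 1192 in control), rank 23 (3762 nt, 421 in T3 and 1459 in control), rank 25 (720 nt, 330 in T3 and 1139 in control) and rank 31 (402 nt, 461 in T3 and 1517 in control). Members with somewhat fewer counts lay between these values, such as rank 70 (501 nt, 350 counts in T3 and 889 in control, 3.10-fold), so the gap among the 10 is not a gap in the set. The 6 genes of larger fold run from 354 to 3762 nt and the 4 of smaller fold from 675 to 2901 nt.

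Levels per length, which allow genes to be compared with each other, gave another order. They are given as CPM per kilobase of coding sequence. Members ran from 0 to 280 in T3, with a median of 9.76, and from 3.74 to 763 in control, with a median of 29.7. All 7748 genes had medians of 12.8 in T3 and 13.9 in control. The member at the top of the control order was rank 31 (402 nt), at 190 in T3 and 763 in control. Rank 107 (762 nt) followed at 280 in T3 and 745 in control, and was the highest in T3. Rank 22 (354 nt) was at 157 in T3 and 681 in control. The order of the first 2 therefore differed between the libraries. Their control levels were close, however, and no interval was computed for that order.

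Of the 10 highest per length in control, 6 were also among the 10 with the most control counts. The other 4 have short coding sequences of 306 to 501 nt. Rank 101 (387 nt) was at 213 in T3 and 582 in control. Rank 86 (495 nt) was at 128 in T3 and 362 in control, and rank 70 (501 nt) was close to it, at 116 in T3 and 359 in control. Rank 83 (306 nt) was at 115 in T3 and 330 in control. All 4 were 2.73- to 3.10-fold lower.

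**Figure D3:**
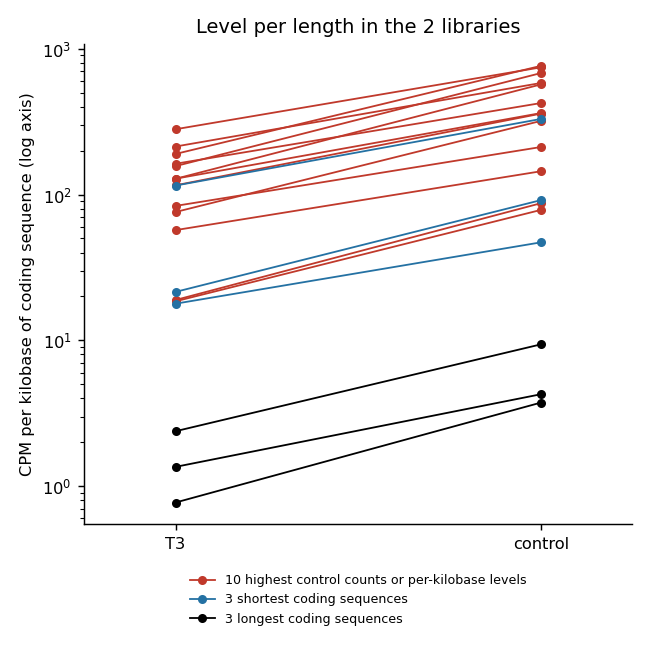
CPM per kilobase of coding sequence (log axis) in T3 (left) and control (right) for the members with the 10 highest control counts or per-length levels (red), the 3 shortest (blue) and the 3 longest (black), 1 line a gene. Rank 83 is among both the 10 highest per length and the 3 shortest, and is drawn in blue. The longest genes sit lowest, between 0.772 and 2.38 in T3 and between 3.74 and 9.38 in control. This order follows largely from dividing counts within fixed limits by length, and the red genes were picked for high levels. Spearman's rho of control level per length with length was -0.65 across the 137 members.

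Relative to the 7748 genes, the members were mostly below the median in T3 and mostly above it in control. In T3, 52 of 137 were at or above the median level per length, against 105 in control. At or above the 90th percentile were 13 members in T3 and 28 in control. Below the 10th percentile were 32 members in T3 and 2 in control. The rule needs a higher control share, so this shift is part of how the members were chosen.

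The members had a shorter median coding length than the genes of the same abundance range as a whole, a description over genes of 2 libraries with no test. Their median coding length was 1278 nt, with quartiles of 720 and 2052 nt, against 1539 nt for all 7748 genes and 1419 nt for the 53 genes higher in T3. Coding sequences under 1000 nt made up 42.3% of the members (58 of 137), 26.4% of the 53 higher genes and 28.5% of the 7748 genes. With the 7748 genes in 5 length classes of nearly equal size, members were 2.77% of the shortest class (43 of 1550, 126 to 786 nt) and 1.10% of the longest (17 of 1550, 3009 to 8994 nt). The 3 classes between held 1.69%, 1.80% and 1.48%. The higher genes did not follow that order. Their shares were 0.516%, 1.04%, 0.708%, 0.709% and 0.452% from the shortest class to the longest.

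The median gene of the shortest class was itself lower in T3, so the share of members moves with a shift of the whole class. The median log2 ratio was -0.19 in the shortest class, -0.11, -0.09 and -0.06 in the next 3, and -0.03 in the longest. Set against the median of its own class, 1.87% of the shortest class and 1.03% of the longest were at least 2.5-fold lower. In the 3 classes between, the shares were 1.10%, 1.42% and 1.22%, so they did not fall steadily with length. From the shortest class to the longest, 29, 17, 22, 19 and 16 genes were that far below the class median. As far above it were 12, 19, 13, 12 and 9 genes. The part of RNA quality or fragment size in the shift of the class medians was not tested. Without such centring, the share of members was higher under 1000 nt than at longer lengths within each class of counts. It was 3.00% against 1.30% at 100 to 199 counts, 1.57% against 1.19% at 200 to 499, and 3.47% against 2.30% at 500 or more. These shares include the shift of the short genes. Fold size showed little relation to length among the members (Spearman's rho -0.06 across 137 genes, all from the same 2 libraries). As the rule limits both fold and length, this value describes the members only.

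The shortest and longest members show how far the set reaches. Rank 24 is the shortest, at 285 nt, with 37 counts in T3 and 129 in control, 4.22-fold lower (2.94 to 6.32). Rank 115 (297 nt) had 32 counts in T3 and 69 in control, and its interval of 1.71 to 4.14-fold includes 2-fold. The third shortest is rank 83, given above. The longest is rank 33, at 8277 nt, with 119 counts in T3 and 384 in control, 3.93-fold lower (3.20 to 4.89). Rank 16 (6435 nt) had 30 in T3 and 119 in control, 4.79-fold lower (3.23 to 7.50), and rank 67 (6351 nt) had 52 in T3 and 134 in control, 3.13-fold lower (2.27 to 4.43). The largest fold among these 6 genes, 4.79, thus belongs to a long gene and the smallest, 2.61, to a short one. The intervals of these 2 genes overlap, so their order is not resolved. At 0.772 in T3 and 3.74 in control, rank 16 had the lowest control level per length of all members.

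By abundance, members were 1.74% of the genes with 100 to 199 counts (61 of 3510) and 1.30% of those with 200 to 499 (36 of 2779). They were 2.69% of those with 500 to 999 counts (24 of 891) and 2.82% of those with at least 1000 (16 of 568). The median log2 ratio of all genes was -0.05, -0.10, -0.14 and -0.19 in these 4 classes. Set against the class median, the share was 1.45%, 1.04%, 2.02% and 1.23%. In the most abundant class that is 7 genes in place of 16. The class of 500 to 999 counts then had the largest share of the 4, with 18 genes in place of 24. Genes at least 2.5-fold above the class median numbered 23, 25, 9 and 9, against 51, 29, 18 and 7 below it. Fold size had no visible relation to summed counts among the members (Spearman's rho 0.01 across 137 genes). The rule limits both quantities, so this value describes the members only and tests nothing.

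**Figure D4:**
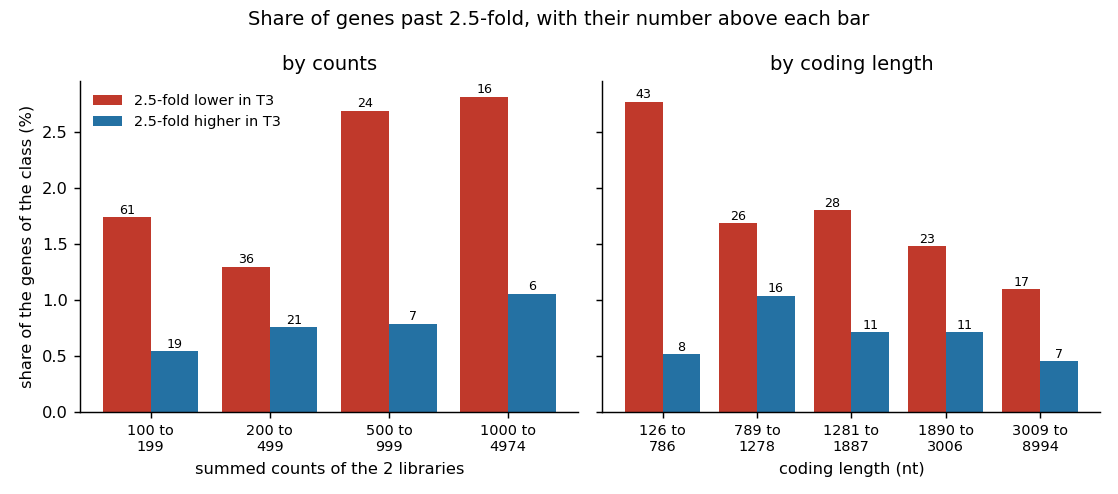
Percent of the genes in each class of summed counts (left) and of coding length (right) that were at least 2.5-fold lower (red) or higher (blue) in T3, with the number of genes above each bar. Members reach 2.82% at 1000 counts or more and 2.77% in the shortest length class.

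The limits of the rule cut through a continuous range. Just inside the fold limit were ranks 137, 136 and 135, at 2.502-, 2.511- and 2.519-fold lower, with 53, 64 and 57 counts in T3 and 109, 132 and 118 in control. Just outside were 3 genes with 33, 33 and 34 counts in T3 and 68, 68 and 70 in control, at 2.499-, 2.499- and 2.498-fold lower. The intervals of the first 2 of these reach from 1.64 to 3.94-fold, well to both sides of the limit. A scaling by which every ratio is 0.07 higher on the log2 scale (the trimmed mean of M-values) left 112 of the 137 past the limit, with 61 genes past the higher one. Leaving the 20 most abundant genes out of the totals moved every log2 ratio by 0.16, the median of all genes included, and left 88 lower and 80 higher. Lower genes made up 72.1% of both as reported and 52.4% in that case, so the excess of lower over higher genes depends on the scaling.

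Members lay along the whole order of the gene IDs, with some close together. No source used here says whether that order is genomic, and the values that follow are a description with no test. The median distance between one member and the next was 85 IDs and the longest 944. Direct neighbours were ranks 112 and 130 (2208 and 1272 nt, 2.63- and 2.53-fold lower) and ranks 27 and 9 (1800 and 2025 nt, 4.08- and 5.97-fold lower). In both pairs the levels per length were far apart. Rank 112 stood at 5.10 CPM per kilobase in T3 and 13.5 in control, and rank 130 at 83.5 in T3 and 212 in control. Rank 27 stood at 6.53 in T3 and 26.7 in control, and rank 9 at 1.39 in T3 and 8.49 in control.

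Ranks 51 and 52 lie 3 IDs apart and were alike in every measure. Their coding lengths are 1143 and 1140 nt. Rank 51 had 147 counts in T3 and 403 in control, and rank 52 had 135 in T3 and 365 in control. They were 3.34- and 3.30-fold lower. Whether reads were shared between them is not known, as no sequence was used here, and they may not be separate measurements. Another pair 3 IDs apart, ranks 71 and 15, was unlike. Its coding lengths are 1563 and 780 nt, and its genes were 3.06- and 4.88-fold lower.

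The densest stretch held 7 members within 139 IDs. All 7 were modestly lower, from 2.53- to 3.03-fold, and 3 of the 7 had an interval beyond 2-fold. They are ranks 72, 79, 82, 93, 99, 113 and 132, with 30 to 999 counts in T3 and 71 to 2071 in control. The run of 150 IDs that starts with the first of them holds 62 genes within the count and length limits, so that 11.3% were members. Of the other 55, 41 (74.5%) were lower in T3 with a median log2 ratio of -0.27, against 59.3% of all 7748 genes with a median of -0.10. The stretch was picked for its members; 0 of the 53 higher genes lay there, where 0.684% of the genes within the limits are higher overall.

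**Figure D5:**
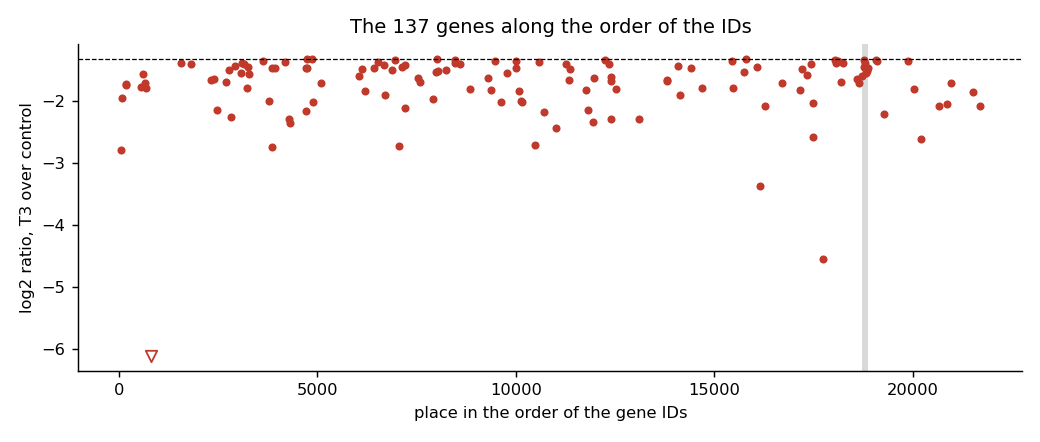
Log2 ratio (T3 over control) of the 137 genes against their place in the order of the gene IDs. The dashed line is the 2.5-fold limit, the grey band the densest stretch with 7 members in 139 IDs, and the open triangle the gene with 0 counts in T3, drawn at the 3-count limit.

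Genes next to a member had a lower median than genes at large. Among the 108 direct neighbours with at least 100 counts that were not members themselves, the median log2 ratio was -0.23 and 66.7% were lower in T3. All 8083 genes with at least 100 counts had a median of -0.10, with 59.2% lower. At 2 IDs away the median was -0.14 (98 genes), at 3 IDs -0.13 (113 genes) and at 10 IDs -0.09 (105 genes). With a minimum of 10 counts the direct neighbours had a median of -0.20 (217 genes, 61.3% lower), but those 2, 3 and 10 IDs away had -0.02, -0.05 and -0.09, against -0.07 (55.7% lower) for all 17301 genes. With at least 100 counts the median thus rose with each distance, but with at least 10 counts it did not. The values were not tested.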

How the data were processed

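Poly(A)-selected RNA was sequenced as paired-end reads, per the labels' protocols. The deposited table gives raw read counts and FPKM per gene and library, per the file headers; 0 further sample columns were left unused. The submitters' processing notes name TopHat2 2.0.12, HTSeq 0.6.1 and edgeR but not their roles; build, annotation and strand setting are not given in the sources used here. None of the 21787 IDs (0 matched) occurs in the RefSeq table of 30478 flounder genes.

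Coding lengths were derived from count, deposited FPKM and column total, divided by a common factor of 9 that no label explains; all 20038 were whole numbers (tolerance 0.05 nt), and 20037 were multiples of 3. The factor touches lengths and per-length levels, not ratios. Levels are counts per 1000000 of the column total. Ratios have 0.5 added to each count, and exact 95% Clopper-Pearson intervals use the counts alone (Python 3.11.15, scipy 1.17.1). Scaling alternatives used edgeR 4.0.16 and DESeq2 1.42.0 under R 4.3.3. With 1 library per group no test was run. Reads carry no molecular identifiers, so counting error is all that intervals and floors cover. The code for the rule and the interval was run on simulated counts that held counting error only. That checks the computation and says nothing about variation between libraries.

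The members, limits and alternatives were chosen with earlier results of these data known. By rule, the text names members with near-complete loss, the 10 highest in control counts and in control level per length, the 3 shortest and longest, and the 3 genes on either side of the fold limit. At most 2 IDs are printed.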

Additional observations from a re-analysis of the deposited data

How the results depend on the processing

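The median log2 ratio of the members (-1.64) was -1.56, -1.57, -1.54 and -1.48 under the 4 other scalings, which shift every gene alike and so do not test it. With 1 added to the deposited FPKM it was -1.06, since the added value weighs more on low FPKM. The number of members beyond 2-fold by interval (106) was 80 to 97 under the other scalings and 86 with a 99% interval. The number of members (137) depended most on the limits: 306 at 2-fold, 73 at 3-fold and 32 at 4-fold; 595, 226 and 76 with a minimum of 10, 50 and 200 counts; and 43 with 1 added to the deposited FPKM. It was 88 without the 20 most abundant genes in the totals and 105 to 113 under the 3 other scalings. Near-complete loss (2 members) became 4 with a limit of 20% and 1 without the 20 most abundant genes. Chosen after seeing the data, ratios centred on length or count classes gave 103 and 105, and the T3 library thinned to the control total gave 120 to 136 over 20 draws. No paired analysis was possible because neither group holds more than 1 library; for that reason none could be omitted. The minimum of 100 counts is a choice of the rule. Genes at least 2.5-fold lower with an interval beyond 2-fold were also found below it. They were 29 of 3717 genes with 50 to 99 counts and 32 of 5460 with 10 to 49. Within the limits they were 106 of 7748. At their depth and fold size, 31 members could not be placed beyond 2-fold.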

Other observations

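Genes outside the count limits included 2 more with an upper counting bound under 10% of control; both were found after their values were seen. One has 630 nt and had 0 counts in T3 and 96 in control, with an upper bound of 3.21% of control. Its sum of 96 counts missed the minimum of 100. The other, with 2322 nt, had 1313 counts in T3 and 14739 in control. Among the 226 genes with at least 5000 counts and under 9000 nt, 4 were at least 2.5-fold lower and 6 higher. Among the 3717 genes with 50 to 99 counts, 89 were lower (2.39%) and 23 higher.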
